A study of Mus musculus with 16 samples.

Results

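The core genes of the circadian clock, Arntl (also Bmal1), Clock, Npas2, Per1, Per2, Per3, Cry1, Cry2, Nr1d1 and Nr1d2, were followed in RNA-seq of mouse quadriceps. They were the 10 rows of the expression table with these symbols, among 23970 symbols. The RNA came from male C57BL/6NTac mice aged 16 weeks that had been fed a control diet (CON) or a high-fat diet (HFD). The pre groups, CON-pre and HFD-pre, did not run, and muscle of the post groups, CON-post and HFD-post, was collected 3 h after mice had run on a treadmill to exhaustion once, with 4 libraries in each of the 4 groups. The Methods state that pre mice, which were not the mice that ran, had been introduced to the treadmill and fasted like the others, and that food was withheld from the runners until muscle was taken. They place the fast before the run in the morning but print no clock hour for muscle collection in either state, and so any difference in hour, or in time without food, between the post and pre groups cannot be told apart from the run. The labels do not say that the libraries of a group came from separate mice, and the p-values below measure only the spread between these libraries.

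The mammalian clock is a loop of transcription and translation. ARNTL pairs with CLOCK, or with its relative NPAS2, and the pair binds E-box elements to drive the Per, Cry and Nr1d genes. PER and CRY proteins return to the nucleus and inhibit the pair, while the nuclear receptors REV-ERBα (Nr1d1) and REV-ERBβ (Nr1d2) repress Arntl through RORE elements that the ROR receptors activate. D-box elements, bound by DBP, TEF, HLF and NFIL3, add a further arm. Because of this wiring, Arntl transcript runs out of phase with Per transcript over the day, in skeletal muscle as in other peripheral tissues, and muscle is known for a large set of daily cycling transcripts of substrate metabolism.

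In RefSeq (GRCm38.p6), Arntl lies on chromosome 7 at 113178471-113314126 (plus strand), Nr1d1 on chromosome 11 at 98767932-98775377 (minus strand), Cry2 on chromosome 2 at 92403646-92434085 (minus strand) and Per3 on chromosome 4 at 150997018-151044707 (minus strand). Promoter windows of 300 bases, from 250 before to 50 after a transcript's start, were matched for 9 of the 10 genes (13 windows), not for Per2. They were searched on both strands for the E-box CACGTG, the variant E-box AACGTG, the core of the RORE, AGGTCA, and the D-box TTATGTAA or TTACGTAA. The following stretches, read from RefSeq, carry such elements in the genes whose values the results turn on, with every match in capitals. For Arntl the stretch is transcribed sequence around the RORE core at base 32 after a start (chr7:113207530-113207559, plus strand).
Arntl: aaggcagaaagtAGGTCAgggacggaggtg
For the other genes the stretch is the 250 bases before the start, which for Nr1d1 (chr11:98775378-98775627, minus strand) hold a variant E-box whose first base is at -28 from the start.
Nr1d1: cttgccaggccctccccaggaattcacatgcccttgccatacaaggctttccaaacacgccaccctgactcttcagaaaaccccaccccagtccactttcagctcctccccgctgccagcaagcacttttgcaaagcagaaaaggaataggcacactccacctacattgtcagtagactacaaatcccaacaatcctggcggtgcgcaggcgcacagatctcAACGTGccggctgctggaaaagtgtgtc
The stretch before Cry2 (chr2:92434070-92434319, minus strand) has a variant E-box at -166.
Cry2: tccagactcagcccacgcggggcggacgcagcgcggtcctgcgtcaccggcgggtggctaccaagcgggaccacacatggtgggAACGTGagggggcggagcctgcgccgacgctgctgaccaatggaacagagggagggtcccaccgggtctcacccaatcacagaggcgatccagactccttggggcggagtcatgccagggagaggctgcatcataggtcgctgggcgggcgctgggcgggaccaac
Cry1, the paralog of Cry2, is shown for contrast (chr10:85185055-85185304, minus strand), with an E-box at -60 and a variant E-box at -79.
Cry1: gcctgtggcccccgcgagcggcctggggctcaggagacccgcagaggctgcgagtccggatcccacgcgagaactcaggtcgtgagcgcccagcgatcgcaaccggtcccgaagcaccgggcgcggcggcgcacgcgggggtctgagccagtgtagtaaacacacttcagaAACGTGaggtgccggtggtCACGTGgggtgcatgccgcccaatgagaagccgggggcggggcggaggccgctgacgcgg
Upstream of Per3 (chr4:151044666-151044915, minus strand) the D-box TTATGTAA occurs at -205 and again at -158.
Per3: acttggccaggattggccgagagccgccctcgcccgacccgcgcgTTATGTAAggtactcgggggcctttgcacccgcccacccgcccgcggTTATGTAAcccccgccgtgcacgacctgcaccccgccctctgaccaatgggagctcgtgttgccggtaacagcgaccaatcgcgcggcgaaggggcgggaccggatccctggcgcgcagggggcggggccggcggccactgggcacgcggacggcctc
Per1 has an E-box at -166 and a RORE core at -137 of the start shown (chr11:69098699-69098948, plus strand).
Per1: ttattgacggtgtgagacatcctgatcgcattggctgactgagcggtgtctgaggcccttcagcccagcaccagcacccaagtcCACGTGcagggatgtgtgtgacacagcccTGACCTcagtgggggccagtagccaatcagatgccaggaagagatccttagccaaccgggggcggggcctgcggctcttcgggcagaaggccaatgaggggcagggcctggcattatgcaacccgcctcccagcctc
A RORE core was also found at -119 of 1 start of Clock and at -77 of Nr1d2, and no match was found in the window of Npas2. Such matches are a description of letters and not of binding. Of 32851 windows of this length, 7.15% held an E-box, 4.68% the variant E-box, 16.3% a RORE core and 1.06% a D-box.

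The values are FPKM, in which the fragments of a gene are divided by its length and by the size of the library, so levels can be compared between genes per length. Averaged over the 16 libraries, Nr1d1 had the highest level, 41.8 FPKM (lowest 14.2, highest 66.7), followed by Nr1d2 with 25.3 (21.7 to 30.3). Per1 had 11.3 FPKM (4.83 to 18.5) and Cry2 10.9 (7.97 to 16.2). Arntl had 4.78 FPKM (2.47 to 8.85), Per3 4.72 (2.94 to 6.05) and Per2 3.86 (1.96 to 5.30). Cry1 with 2.96 FPKM (1.80 to 3.76) and Clock with 2.74 (1.87 to 3.47) were the lowest of the genes tested. Npas2, the alternative partner of ARNTL, had 0.099 FPKM (0.0222 to 0.219), which is below the filter of a mean of 0.5 FPKM, and it was not tested. Between neighbours in this order, the ranges overlapped for all pairs other than Nr1d2 with Per1 and Clock with Npas2. Within a library, Per3 was above Per2 in 16 of 16 libraries, Cry2 above Arntl in 15, Nr1d1 above Nr1d2 in 12 and Per2 above Cry1 in 11, while Per1 was above Cry2 and Cry1 above Clock in only 9 of 16 and Arntl above Per3 in 7, so that these last pairs had no fixed order.

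**Figure D1:**
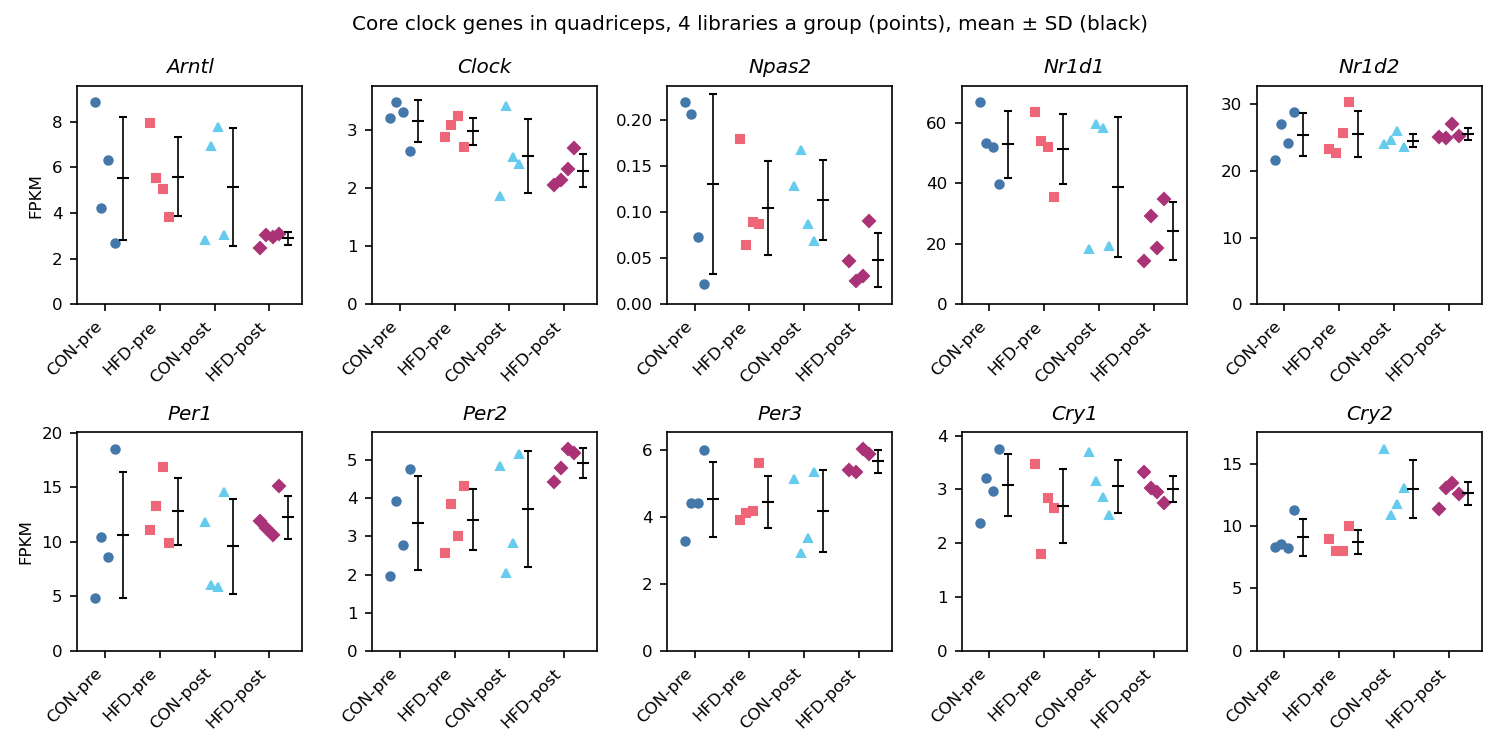
FPKM (y axis, from 0, a scale for each gene) of the 10 core clock genes in the 4 groups (x axis), with 1 point per library and the mean ± SD of the 4 libraries in black. Cry2 lies higher in both post groups, Nr1d1 and Arntl are low in all 4 HFD-post libraries and spread widely in CON-post, and Nr1d2 stays between 21.7 and 30.3 throughout.

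Total FPKM of the libraries ranged from 283575 to 329282, the depth relative to CON-pre replicate 1, taken from genes of low FPKM, was between 0.702 and 1.13, and the share of FPKM in the top 10 genes ranged from 29.2 to 36.5%. The choice of scaling changed the count of core genes called with both diets together, as given in the last section. The depth in reads is unknown from these values, so no counting interval is given. As a check of the tissue label, 9 muscle fibre markers, none at 0, summed to between 5.18e+04 and 7.12e+04 FPKM in the libraries, while 3 hepatocyte markers summed to between 0.271 and 27.3. Sums of markers of other cells that muscle samples can hold, none at 0, ranged from 33.9 to 118 FPKM for 5 adipocyte, from 227 to 729 for 4 erythroid, from 5.02 to 17.8 for 3 tendon and from 7.67 to 15.7 for 3 Schwann cell markers. The adipocyte sum had a median of 41.3 FPKM in CON-pre, 50.4 in CON-post, 41.6 in HFD-pre and 67.4 in HFD-post, and in HFD-post against HFD-pre 5 of 5 adipocyte markers had a higher mean (median log2 fold change 0.469, all genes 0.0353) and 0 of 5 passed the adjusted threshold. Its part in the differences between HFD-post and HFD-pre that follow was not tested.

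The first question was whether clock genes differed 3 h after maximal exercise on each diet. The 9 genes were tested with limma on log2(FPKM + 0.5), with adjustment over 11256 genes, and the added 0.5 pulls the fold changes of low genes towards 0. Averaged over both diets, Cry2 rose, and it was the only core gene past an adjusted p of 0.05 in any contrast. On either diet alone 0 of 9 genes passed, where 1.11% of all genes tested passed in CON-post against CON-pre and 0.542% in HFD-post against HFD-pre. At an unadjusted p under 0.05 there were 2 of 9 on CON (Cry2 and Clock), where 11.1% of all genes reached it, and 4 of 9 on HFD (Cry2, Nr1d1, Arntl and Clock), where 11.7% did. With both diets together, 1 of 9 passed the adjusted threshold (3.86% of all genes) and 3 of 9 the unadjusted one (Cry2, Nr1d1 and Clock, against 18.5% of all genes). The median log2 fold change of the 9 genes was -0.0157 with both diets together and that of all genes 0.0141, since some members were higher and others lower after exercise.

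Groups were also compared by whether their FPKM overlapped. In HFD-post against HFD-pre, the 4 libraries of a group lay wholly on one side of the other 4 for 5 of 9 genes, namely Arntl, Clock, Nr1d1, Per2 and Cry2, where 6.81% of all genes did so. In CON-post against CON-pre this was true of 0 of 9 genes (5.82% of all genes). Core genes are not separate observations, since many of them varied together among libraries of the same group, as described below. A shift shared by the libraries of a group would count in several genes at once. Such counts, here and above, are therefore given beside the share of all genes as a description and not as a test. Bulk RNA cannot tell fewer cells of a type from less RNA per cell, here or in any comparison that follows.

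Cry2, which encodes a cryptochrome that inhibits ARNTL and CLOCK, read 8.32, 8.58, 8.21 and 11.3 FPKM in CON-pre replicates 1 to 4 and 16.2, 10.9, 11.8 and 13.0 in CON-post. In HFD-pre it read 8.98, 7.99, 7.97 and 9.99 FPKM, and in HFD-post 11.4, 13.1, 13.4 and 12.6. Each HFD-post library was above each HFD-pre library, and on CON only the CON-pre library of replicate 4 reached into the range of CON-post. The group means were 9.10 ± 1.47 in CON-pre, 13.0 ± 2.31 in CON-post, 8.73 ± 0.965 in HFD-pre and 12.6 ± 0.899 in HFD-post (SD, n = 4). With both diets together the log2 fold change was 0.50 (SE 0.09, 95% interval 0.32 to 0.68, limma adjusted p = 0.00309), or 1.41 times. An exact permutation test within diets gave p = 0.000816 (two-sided, 8 libraries against 8). On CON the log2 fold change was 0.49 (SE 0.12, limma adjusted p = 0.0691, exact permutation p = 0.0571) and on HFD 0.51 (SE 0.12, limma adjusted p = 0.0915, exact permutation p = 0.0286). With 4 libraries against 4, a p of 0.0286 is the smallest this test can give. The difference on each diet alone did not pass the threshold, and over 28 alternative settings the limma adjusted p ranged from 0.0147 to 0.251 on CON and from 0.0258 to 0.271 on HFD, passing in 3 settings on each. Without CON-pre replicate 4 it was 0.0147 on CON and 0.0417 on HFD.

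Cry1, the other cryptochrome, showed no such difference. Its means were 3.08 ± 0.574 FPKM in CON-pre, 3.06 ± 0.492 in CON-post, 2.70 ± 0.69 in HFD-pre and 3.01 ± 0.238 in HFD-post (SD, n = 4), and the groups overlapped in both exercise comparisons. The test of the difference between Cry1 and Cry2 themselves was not made. An opposite-strand transcript, D930015M05Rik, shares 295 exonic bases with Cry2, 4.67% of its exonic length, and whether the counting used the strand of the reads is not given in the sources used here.

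Nr1d1, the REV-ERB with the higher mean over all libraries, read 66.7, 53.2, 51.9 and 39.6 FPKM in CON-pre replicates 1 to 4 and 18.2, 59.5, 58.0 and 19.1 in CON-post. HFD-pre libraries had 63.6, 53.8, 52.0 and 35.6 FPKM, and HFD-post libraries 14.2, 29.3, 18.5 and 34.9. CON-post replicates 1 and 4 were below every pre library, whereas replicates 2 and 3 were within the range of CON-pre, and all 4 HFD-post libraries were below the lowest HFD-pre library, in the last case by little (34.9 against 35.6). The means were 52.8 ± 11.1 in CON-pre, 38.7 ± 23.2 in CON-post, 51.2 ± 11.6 in HFD-pre and 24.2 ± 9.53 in HFD-post (SD, n = 4). The log2 fold change was -0.64 on CON (SE 0.37, limma adjusted p = 0.554, exact permutation p = 0.314) and -1.12 on HFD (SE 0.37, limma adjusted p = 0.240, exact permutation p = 0.0286). With both diets together it was -0.88 (SE 0.26, limma adjusted p = 0.0740, exact permutation p = 0.0131), which did not pass the threshold. Over 27 alternative settings the difference with both diets together passed in only 4, with a limma adjusted p from 0.0335 to 0.148. Without CON-post replicate 2 the limma adjusted p was 0.0335 and without CON-post replicate 3 it was 0.0418. Upper-quartile scaling gave 0.0473 and quantile normalization 0.0431. On CON the value rested on replicates 1 and 4, since the log2 fold change was -0.36 without CON-post replicate 1 (limma adjusted p = 0.819) and -0.38 without CON-post replicate 4 (0.746). Nr1d1 and Thra, on opposite strands, share 263 exonic bases, 8.42% of the exonic length of Nr1d1. Thra, a thyroid hormone receptor, averaged 17.3 ± 1.06 FPKM in CON-pre, 17.2 ± 1.57 in HFD-pre, 15.2 ± 1.74 in CON-post and 14.9 ± 1.05 in HFD-post (SD, n = 4), and its part in the values of Nr1d1 was not tested.

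Nr1d2, the second REV-ERB, varied least of all core genes in proportion to its level. Its means were 25.5 ± 3.18 FPKM in CON-pre, 24.6 ± 1.04 in CON-post, 25.5 ± 3.48 in HFD-pre and 25.6 ± 0.959 in HFD-post (SD, n = 4). The ratio of Nr1d1 to Nr1d2 within a library, which does not depend on the scaling of that library, therefore moved with Nr1d1. Its median was 2.05 in CON-pre (1.37 to 3.07), 1.52 in CON-post (0.758 to 2.41), 2.19 in HFD-pre (1.17 to 2.73) and 0.928 in HFD-post (0.565 to 1.38).

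Arntl, the activator that REV-ERB represses, read 8.85, 4.20, 6.33 and 2.68 FPKM in CON-pre replicates 1 to 4 and 2.82, 6.95, 7.75 and 3.02 in CON-post. Its values were 7.96, 5.54, 5.05 and 3.81 FPKM in HFD-pre, and 2.47, 3.03, 2.94 and 3.09 in HFD-post. The 3 other groups each spread over at least a doubling, while the 4 HFD-post libraries lay close together and below all HFD-pre libraries. The means were 5.52 ± 2.68 in CON-pre, 5.13 ± 2.58 in CON-post, 5.59 ± 1.74 in HFD-pre and 2.88 ± 0.283 in HFD-post (SD, n = 4). On HFD the log2 fold change was -0.81 (SE 0.33, limma adjusted p = 0.339, exact permutation p = 0.0286), and on CON it was -0.10 (SE 0.33, 95% interval -0.80 to 0.59, exact permutation p = 0.8), with a sign that turned when 1 library was left out. Arntl therefore did not pass the adjusted threshold on either diet, and the difference between diets in its response, tested as an interaction, was -0.71 (SE 0.46, limma adjusted p = 1.00).

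Clock, the partner of ARNTL, read 3.19, 3.47, 3.30 and 2.64 FPKM in CON-pre replicates 1 to 4 and 1.87, 3.40, 2.53 and 2.42 in CON-post. In HFD-pre it read 2.87, 3.07, 3.24 and 2.71 FPKM, and in HFD-post 2.06, 2.14, 2.32 and 2.68. The HFD groups did not overlap, by a margin of 2.68 against 2.71, and on CON the library of CON-post replicate 2 was within the range of CON-pre. The log2 fold change was -0.28 on CON (SE 0.13, limma adjusted p = 0.448, exact permutation p = 0.143), -0.31 on HFD (SE 0.13, limma adjusted p = 0.347, exact permutation p = 0.0286) and -0.29 with both diets together (SE 0.09, limma adjusted p = 0.0887, exact permutation p = 0.00653). The last passed the threshold in only 5 of 27 alternative settings, with a limma adjusted p from 0.0209 to 0.164. It passed without CON-post replicate 2 (limma adjusted p = 0.0209), with array weights (0.0499) and with 3 other scalings (upper-quartile 0.0370, quantile 0.0416 and median-of-ratios 0.0445). On CON alone the log2 fold change was -0.16 without CON-post replicate 1 (limma adjusted p = 0.74). Npas2, also a partner of ARNTL, was low in every library, with means of 0.13 ± 0.0976 FPKM in CON-pre, 0.113 ± 0.0437 in CON-post, 0.105 ± 0.0508 in HFD-pre and 0.0482 ± 0.0295 in HFD-post (SD, n = 4).

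**Figure D2:**
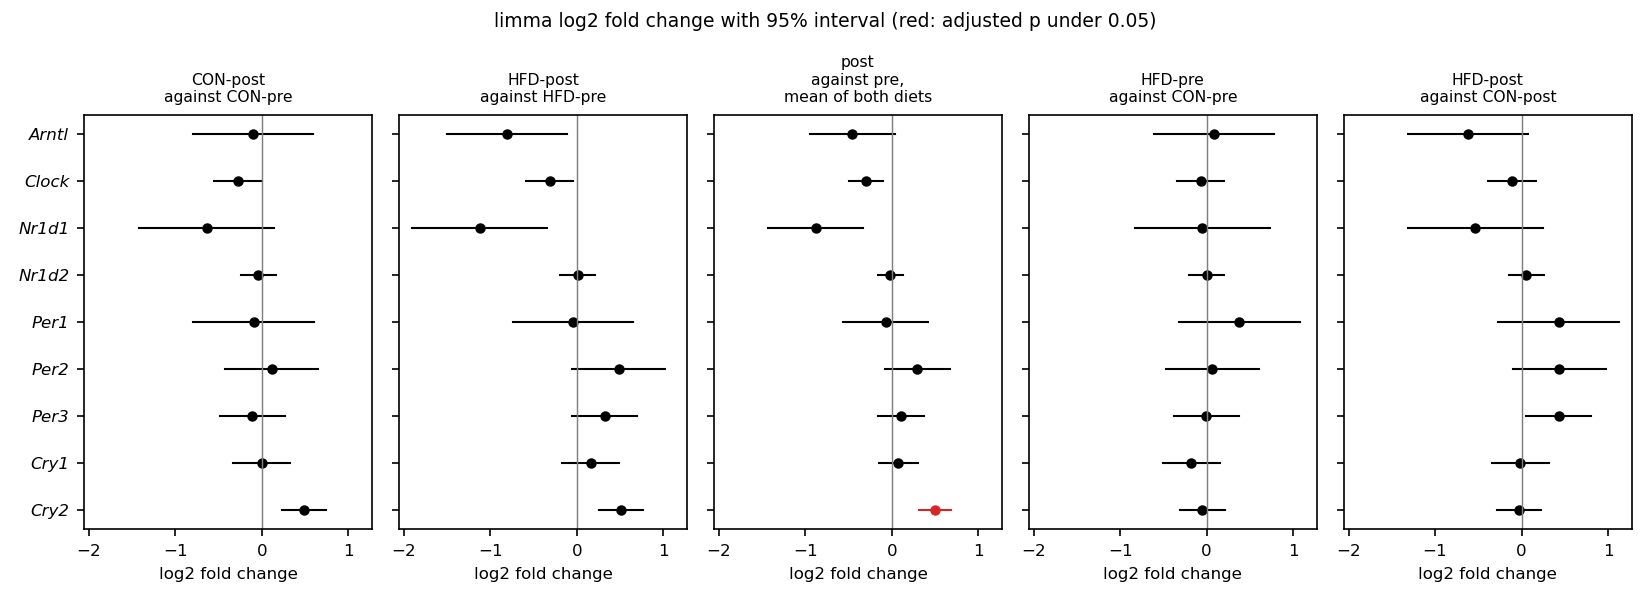
Log2 fold change (x axis) with its 95% interval from limma for the 9 core clock genes tested (y axis), in 5 contrasts, drawn in red where the adjusted p was under 0.05. Cry2 with both diets together, at 0.50, is the only value in red, and Nr1d1 has the lowest values, with wide intervals, in the 3 contrasts of post with pre.

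Per2, a period gene that inhibits ARNTL and CLOCK, read 1.96, 3.94, 2.77 and 4.76 FPKM in CON-pre replicates 1 to 4 and 4.84, 2.04, 2.84 and 5.16 in CON-post. In HFD-pre it read 2.57, 3.85, 3.01 and 4.33 FPKM, and in HFD-post 4.44, 4.79, 5.30 and 5.19. Every HFD-post library was above every HFD-pre library, and the CON groups overlapped almost completely. On HFD the log2 fold change was 0.48 (SE 0.25, limma adjusted p = 0.478, exact permutation p = 0.0286), which did not pass the adjusted threshold. On CON it was 0.11 (SE 0.25, limma adjusted p = 0.913, exact permutation p = 0.657). Set against Arntl within the same library, Arntl over Per2 had a median of 0.576 in HFD-post (0.555 to 0.633), 1.56 in HFD-pre (0.881 to 3.10), 1.68 in CON-pre (0.564 to 4.52) and 1.66 in CON-post (0.583 to 3.41).

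Per3, the period gene with the D-box pair above, read 3.29, 4.43, 4.42 and 6.01 FPKM in CON-pre replicates 1 to 4 and 5.16, 2.94, 3.37 and 5.35 in CON-post. The HFD-pre libraries read 3.93, 4.13, 4.19 and 5.62 FPKM, and in HFD-post 5.41, 5.36, 6.05 and 5.89. The HFD-post libraries were above 3 of the 4 HFD-pre libraries, and the log2 fold change on HFD was 0.33 (SE 0.18, limma adjusted p = 0.498, exact permutation p = 0.0857). On CON it had the other sign, -0.11 (SE 0.18, limma adjusted p = 0.870, exact permutation p = 0.743), and with both diets together it was 0.11 (SE 0.13). Per1, the period gene known to be induced quickly by stress hormones and cAMP, had means of 10.6 ± 5.79 FPKM in CON-pre, 9.58 ± 4.33 in CON-post, 12.8 ± 3.10 in HFD-pre and 12.2 ± 1.98 in HFD-post (SD, n = 4). Its lowest libraries were CON-pre replicate 1 (4.83), CON-post replicate 3 (5.89) and CON-post replicate 2 (6.02), and its highest was CON-pre replicate 4 (18.5).

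The second question was whether diet itself separated the clock genes. Before exercise, 0 of 9 core genes passed the adjusted threshold in HFD-pre against CON-pre (0.346% of all genes), 0 of 9 had an unadjusted p under 0.05 (8.25% of all genes) and 0 of 9 had groups that did not overlap (5.62% of all genes). The values furthest from 0 relative to their error were Per1 with a log2 fold change of 0.38 (SE 0.33) and Cry1 with -0.18 (SE 0.15), both with a limma adjusted p of 0.845. After exercise, in HFD-post against CON-post, 0 of 9 passed the adjusted threshold (0.151% of all genes) and 1 of 9 the unadjusted one (6.29% of all genes). That gene was Per3, with a log2 fold change of 0.43 (SE 0.18, limma adjusted p = 0.710), and it was also the only 1 of 9 whose groups did not overlap (3.16% of all genes, exact permutation p = 0.0286). The margin was small, 5.36 in the lowest HFD-post library against 5.35 in the highest CON-post library. The other log2 fold changes over their SE were -0.62 for Arntl (SE 0.33), -0.53 for Nr1d1 (SE 0.37), 0.44 for Per2 (SE 0.25) and 0.43 for Per1 (SE 0.33), with limma adjusted p of at least 0.879. Leaving out 1 library moved several of these values by over 1.5 times. Per1 before exercise was 0.07 without CON-pre replicate 1 and 0.69 without CON-pre replicate 4, and Cry1 -0.03 without HFD-pre replicate 2. After exercise, Nr1d1 was -0.26 and Per2 0.22 without CON-post replicate 2, and Arntl -0.39 and Per1 0.24 without CON-post replicate 3. These comparisons share libraries with the exercise comparisons and are not independent of them.

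The interaction of diet and exercise passed for 0 of 9 core genes at the adjusted threshold (0% of all genes) and for 0 of 9 at an unadjusted p under 0.05 (3.16% of all genes). Beside Arntl, the values over their SE were 0.44 for Per3 (SE 0.25) and 0.37 for Per2 (SE 0.36), both with a limma adjusted p of 1.00. Per2 was at 0.15 without CON-post replicate 2, and Arntl at -0.44 without CON-pre replicate 4. A difference between diets in the response of any core clock gene to exercise was thus not shown. The counts of genes that did not overlap between pre and post, 5 on HFD and 0 on CON, are of genes that are not independent of each other.

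Libraries of the same group differed from each other in a shared pattern of clock genes. To describe it, each log2 value was expressed as the deviation from the mean of its group, and deviations were correlated over the 16 libraries. The points share the libraries' scaling, the genes were known to belong to one loop, and the correlations are given as descriptions without a p. Among 36 pairs of core genes, 13 had an absolute Pearson r over 0.7. Arntl and Per3 had an r of -0.911 (Spearman rho -0.862, -0.864 without the 2 libraries farthest in Arntl), the lowest r with Arntl of all 11255 other genes tested. Per2 had the second lowest, -0.908 (rho -0.906, -0.866 without those 2 libraries), and Per1 was at -0.815 (rho -0.747, -0.689 without them), with this sign in 2 of 4 groups, the CON groups, and not in the HFD groups. Per2 and Per3, in turn, had an r of 0.935 (rho 0.891), for each the highest of all genes with the other.

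**Figure D3:**
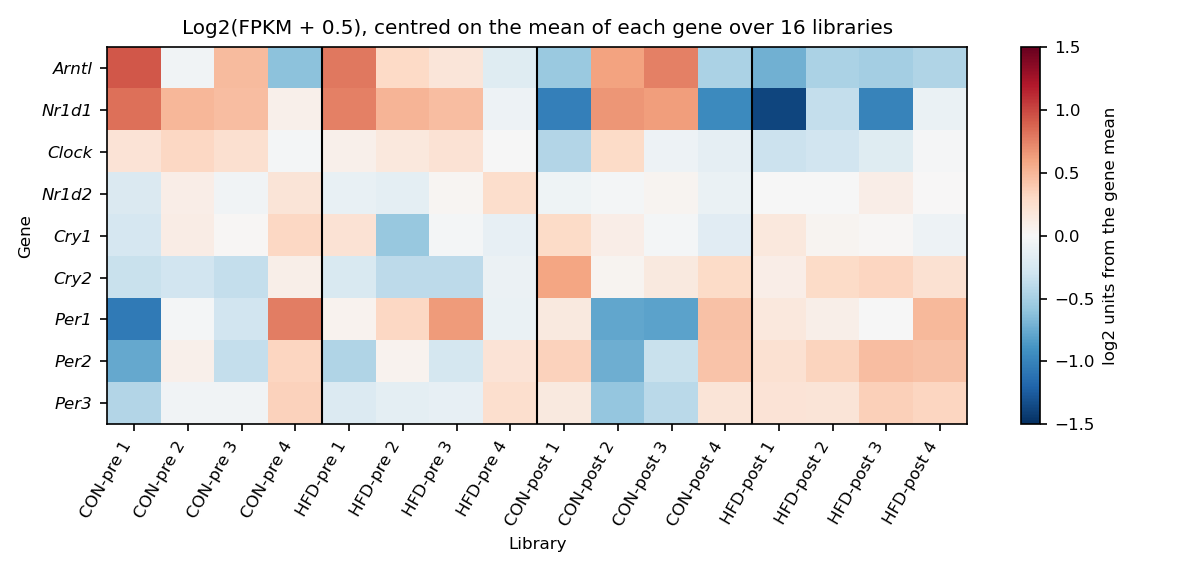
Log2(FPKM + 0.5) of the 9 core clock genes tested (y axis) in the 16 libraries (x axis, grouped), centred on the mean of each gene over all libraries, in red above and in blue below that mean. Arntl and Nr1d1 are blue where Per2 and Per3 are red in CON-post replicates 1 and 4 and in HFD-post, and the reverse holds in CON-pre replicate 1 and CON-post replicates 2 and 3.

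Nr1d1 deviated with Arntl, with an r of 0.819 (rho 0.853, 0.863 without the 2 farthest libraries) and the same sign in 4 of 4 groups. Clock was at 0.581 with Arntl, also with the same sign in 4 of 4 groups, and Cry2 at -0.692, with this sign in 3 of 4. Nr1d2 was at -0.503, with this sign in 2 of 4 groups and -0.214 without the 2 farthest libraries, and Cry1 at -0.278, which became 0.0355 without them. The r of Arntl with Per2 and with Per3 was negative in 3 of 4 groups and positive in HFD-post, where Arntl spread over only 2.47 to 3.09 FPKM. The wide spread of CON-post in Arntl and Nr1d1 was the same split seen in Per2 and Per3: replicates 2 and 3 were high in the former genes and low in the latter, and replicates 1 and 4 the other way. CON-pre spread along the same line, from replicate 1 with the highest Arntl of all libraries (8.85) and the lowest Per2 (1.96) to replicate 4 with 2.68 and 4.76. In HFD-pre, too, replicate 1 had the highest Arntl (7.96) and the lowest Per2 (2.57), and replicate 4 the lowest Arntl (3.81) and the highest Per2 (4.33), whereas the post groups did not run in this order. In both pre groups Nr1d1 was likewise highest in replicate 1 and lowest in replicate 4, and Per3 the reverse. The labels give no batch, hour or order of collection by which these libraries could be split.

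**Figure D4:**
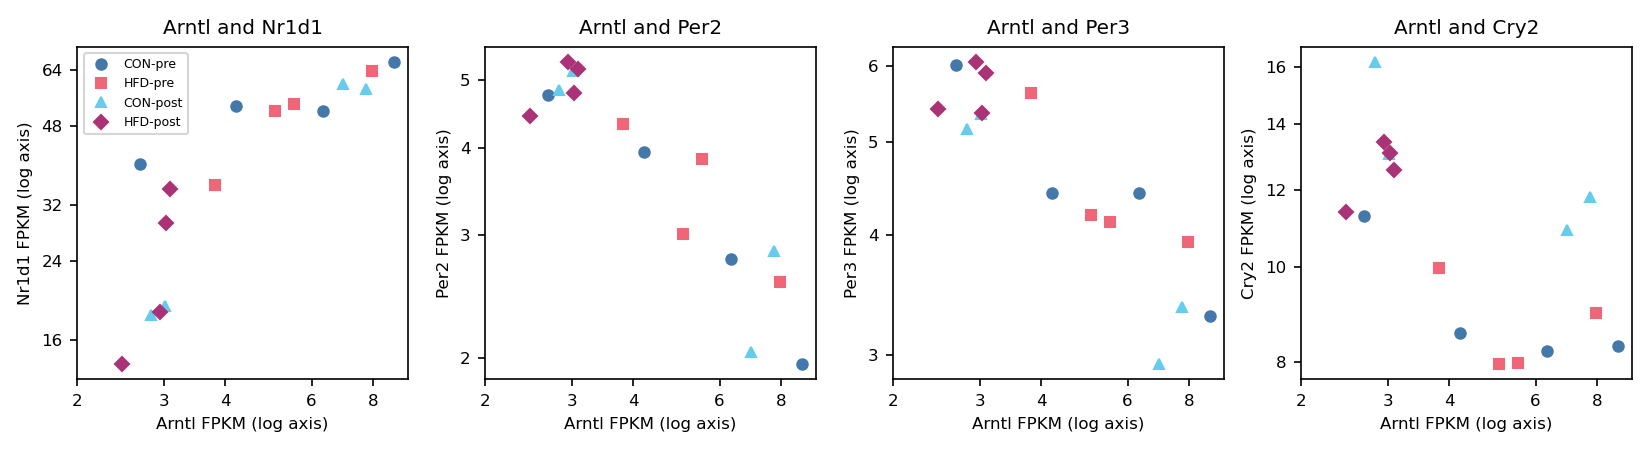
FPKM of Nr1d1, Per2, Per3 and Cry2 (y axes, log scale) against FPKM of Arntl (x axis, log scale), 1 point per library, coloured and shaped by group. Nr1d1 is higher in libraries with more Arntl and Per2 and Per3 are lower, and for Cry2 the CON-post libraries lie above pre libraries of like Arntl.

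Properties of the libraries deviated with these genes too. The sum of FPKM had an r of 0.593 with Arntl and 0.749 with Nr1d1 over the 16 libraries, and the summed level of the 9 muscle fibre markers 0.648 and 0.841. That sum was between 6.50e+04 and 7.12e+04 FPKM in CON-pre, 5.70e+04 and 6.60e+04 in CON-post, 5.71e+04 and 6.26e+04 in HFD-pre and 5.18e+04 and 6.18e+04 in HFD-post. For 4 macrophage markers, whose sum was between 40.9 and 109 FPKM in all libraries with none at 0, the r was 0.705 with Arntl and 0.744 with Nr1d1. For 3 endothelial markers (33.3 to 50.7 FPKM, none at 0) it was 0.721 and 0.517, for 5 adipocyte markers 0.136 and 0.503, and for relative depth -0.316 and -0.401. Cry2 had an r of -0.279 with the sum of FPKM, -0.455 with muscle fibre markers, -0.465 with macrophage markers and -0.383 with endothelial markers. The part of these properties in the values of the clock genes was not tested.

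Each core gene was also set beside the genes outside the list whose log2 values were most like it over the 16 libraries, group differences included. For Arntl these were Bag2 (r = 0.902) and Creb3l1 (0.884), for Clock Sh3bp5 (0.939) and Slc8a1 (0.909), and for Nr1d1 Col5a3 (0.957) and Sh3bgr (0.925). Per2 was most like Usp2 (0.865), a deubiquitinase known as a clock output, and Mylk4 (0.843), and Per3 most like the same Mylk4 (0.841) and Tef (0.821), a D-box factor. Per1 was most like Slc25a25 (0.901) and Tob2 (0.88), Cry2 most like Adarb1 (0.917) and Spsb1 (0.913), Nr1d2 most like Phtf2 (0.846) and Pkia (0.816), and Cry1 most like 4931440F15Rik (0.787).

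Of 20 further clock genes, which act as outputs or modifiers of the loop, 18 were tested. With both diets together 3 rose and 1 fell, where 3.86% of all genes were called, with a median log2 fold change of 0.0855 over the 18 and of 0.0141 over all genes. Nfil3, a repressor at D-boxes, read 9.47, 9.79, 7.62 and 9.23 FPKM in CON-pre replicates 1 to 4 and 17.6, 15.8, 15.1 and 17.7 in CON-post. In HFD-pre it read 10.6, 11.3, 12.2 and 6.34 FPKM, and in HFD-post 11.3, 12.2, 14.6 and 13.3. The CON groups did not overlap and the HFD groups overlapped. Its log2 fold change was 0.60 with both diets together (SE 0.11, limma adjusted p = 0.00425) and 0.84 on CON (SE 0.15, limma adjusted p = 0.00817), where it was the only 1 of the 18 to pass (1.11% of all genes). On HFD it was 0.36 (SE 0.15, limma adjusted p = 0.359), and 0 of 18 passed (0.542% of all genes). Over 28 alternative settings the log2 fold change of Nfil3 on HFD ranged from 0.164 to 0.462. Its HFD-pre replicate 4 read 6.34 FPKM, while the rest of that group was between 10.6 and 12.2. The interaction of diet and exercise for Nfil3 was -0.48 (SE 0.22, limma adjusted p = 1.00), so a difference between diets was not shown.

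The other calls among these genes were close to the threshold. Noct (Ccrn4l in the table), nocturnin, rose by 0.50 on the log2 scale (SE 0.12, limma adjusted p = 0.0266), and Rora, a receptor that activates Arntl through the RORE, by 0.29 (SE 0.08, limma adjusted p = 0.0442). Bhlhe40, a repressor of E-box transcription also called Dec1, fell by 0.46 (SE 0.12, limma adjusted p = 0.0447). Over 27 alternative settings of the analysis, Nfil3 passed in 27, Ccrn4l in 17, Bhlhe40 in 14 and Rora in 9, each with an unchanged direction. In deviations from the group means, Bhlhe40 went with Arntl (r = 0.811) and Ccrn4l and Usp2 against it (-0.801 and -0.797), as did Dbp (-0.711), Hlf (-0.704) and Tef (-0.626), while Nfil3 did neither (0.0288).

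**Figure D5:**
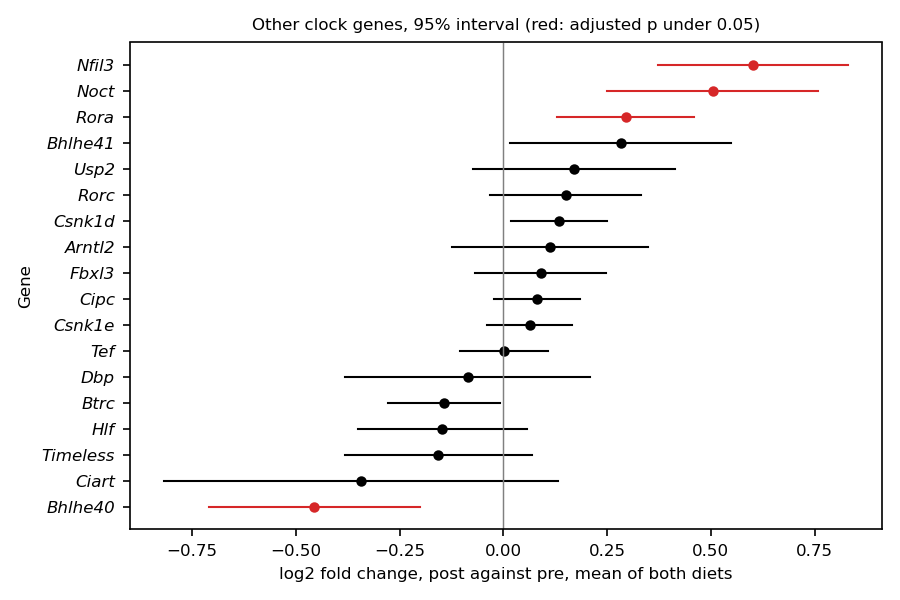
Log2 fold change of post against pre, mean of both diets (x axis), with its 95% interval from limma, for the 18 further clock genes tested (y axis, ordered by value), in red where the adjusted p was under 0.05. Nfil3, Noct and Rora are in red on the right, at 0.60, 0.50 and 0.29, and Bhlhe40 in red on the left, at -0.46.

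Lists of genes that respond to glucocorticoids or to CREB and nerve or contraction signals, which also act on clock genes, were followed in the same fit. Of 12 glucocorticoid-responsive genes tested, 6 rose and 0 fell with both diets together, where 3.86% of all genes were called. They were Fkbp5, a co-chaperone of the receptor (log2 fold change 1.00, SE 0.22, limma adjusted p = 0.0180), Pdk4, a kinase that inhibits pyruvate dehydrogenase (0.91, SE 0.15, limma adjusted p = 0.00200), the transcription factor Foxo3 (0.48, SE 0.09), the cell cycle inhibitor Cdkn1a (0.56, SE 0.12), and the metallothioneins Mt1 (1.46, SE 0.16) and Mt2 (1.76, SE 0.28), closely related copies whose reads may have been split between them. The glucocorticoid-responsive genes not called were Tsc22d3 (0.09, SE 0.11), Sgk1 (0.05, SE 0.22), Klf9 (0.05, SE 0.08), Zbtb16 (0.19, SE 0.12), Klf15 (0.39, SE 0.11) and Ddit4 (0.87, SE 0.40). Of 8 CREB and immediate early genes tested, 5 rose and 0 fell, against the same 3.86% of all genes. They were Nr4a3 (3.49, SE 0.18, limma adjusted p = 2.08e-08), Ppargc1a (2.04, SE 0.13, limma adjusted p = 2.63e-07), Sik1 (1.19, SE 0.09, limma adjusted p = 2.02e-06), Egr1 (1.39, SE 0.25) and Fos (1.07, SE 0.23). Crem (0.28, SE 0.14), Nr4a1 (0.22, SE 0.15) and Junb (0.06, SE 0.22) were not called. On each diet alone the counts were 2 of 12 glucocorticoid-responsive genes on CON and 2 of 12 on HFD, and 5 of 8 CREB and immediate early genes on CON and 3 of 8 on HFD (1.11% and 0.542% of all genes). Of these calls, Egr1 on CON passed in 13 of 28 alternative settings (limma adjusted p up to 0.154), Mt2 on HFD in 21 (up to 0.132) and Fos on CON in 27, and the others in all 28. Fos had a log2 fold change of 1.79 on CON (limma adjusted p = 0.00902) and 0.36 on HFD (0.722), and Pdk4 1.38 on CON (0.00210) and 0.44 on HFD (0.438). Their interactions of diet and exercise were -1.43 (SE 0.47) and -0.94 (SE 0.30), both with a limma adjusted p of 1.00, so a difference between diets was not shown. In the same libraries Per1 and Per2, which are known targets of both signals, had exercise groups that overlapped, other than Per2 on HFD. Runners were sampled at 3 h only, and whether these signals acted on the clock genes was not tested. Deviations from the group means of Fkbp5 had an r of -0.671 with those of Arntl, and of Ppargc1a -0.0542.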

How the data were processed

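The authors prepared stranded mRNA libraries of quadriceps, aligned the trimmed reads with TopHat and used Cufflinks for expression. The submitters' processing notes name FastQC, TopHat, Cufflinks and mm9. The authors deposited FPKM, which are not counts, so no count model was used. Gene positions follow RefSeq GRCm38.p6. For 5 core genes a supplementary table of the study gives loci, which overlapped their gene in that build in 5 cases and in GENCODE M1 (mm9) in 0.

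Of 24487 entries, 27 whose names had become dates were left out (0.0771% of FPKM) and the FPKM of 260 repeated symbols were added up, for 23970 symbols in all. A mean of 0.5 FPKM or more over the 16 libraries was required (11256 genes). Values of log2(FPKM + 0.5) were fitted with limma 3.58.1 (R 4.3.3), using its mean-variance trend, all 16 libraries in 1 fit without covariates, and Benjamini-Hochberg adjustment over the genes tested. The permutation tests were exact and two-sided. Python 3.11.15 was used with pandas 2.3.3, scipy 1.17.1, numpy 2.4.6 and, for plots, matplotlib 3.10.9. The fit was checked on simulated data with known changes. The alternatives were 12 settings and 16 fits that each left out 1 library.

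The core genes, the further lists and the markers were chosen with earlier results of these data known. All core genes were named, along with genes called in the lists of further clock, glucocorticoid and CREB genes (at most 8 a list) and the 2 genes most like each core gene, of which 1 is not reported here. Dbp, Tef, Hlf, Usp2, Thra and the low or high libraries were singled out after their values were seen. The glucocorticoid and CREB genes that were tested but not called are named so that both lists are complete for the genes tested. FPKM carry no depth, and the precision of a value is unknown beyond the spread of libraries. The authors' own comparisons are not used here.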

Additional observations from a re-analysis of the deposited data

Results flagged for a closer look

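For each of the 10 core genes in each of the 4 groups (40 combinations), the gap between the highest or lowest of the 4 libraries and its neighbour was divided by the range of the group and set against the critical value of Dixon's test for 4 values. Chance alone takes about 1 in 20 groups past it. A high library was found in 3 combinations. Cry2 was at 11.29 FPKM in CON-pre replicate 4 (gap over range 0.879), which is the library that made the CON groups of this gene overlap. Per3 was at 5.622 FPKM in HFD-pre replicate 4 (0.845), the only HFD-pre library within the range of HFD-post. Nr1d2 was at 27.0 FPKM in HFD-post replicate 3 (0.885), in a group whose other libraries were between 25.0 and 25.2.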

How the results depend on the processing

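Over 27 alternatives, Cry2 passed the threshold with both diets together in all 27, with a log2 fold change between 0.445 and 0.55 and a limma adjusted p between 7.19e-04 and 0.00959. The count of core genes called with both diets together was 1, and became 3 with upper-quartile scaling, 2 with median-of-ratios scaling, 3 with quantile normalization and 2 with array weights, and between 1 and 3 when 1 library was left out (3 without CON-post replicate 2, 2 without CON-post replicate 3). The added genes were Clock and Nr1d1. On either diet alone the count was 0 and became 1 (Cry2) with array weights, and was between 0 and 1 when 1 library was left out. It was 1 on CON without CON-pre replicate 4 or CON-post replicate 2, and 1 on HFD without CON-pre replicate 4 or CON-post replicate 1. Libraries outside a comparison act only through the shared estimate of the spread. Counts for diet and for the interaction were 0 under every alternative run. Of 54 log2 fold changes of core genes, 23 changed sign under some alternative, and none of these was larger than its SE. Arntl on CON turned from -0.10 to 0.147, 0.1105 and 0.08251 without CON-pre replicate 1, CON-post replicate 1 or CON-post replicate 4, in a range of -0.371 to 0.147, and Per1 on CON ranged from -0.40 to 0.213, Per2 on CON from -0.0844 to 0.331 and Per3 on CON from -0.24 to 0.0264.

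Over all genes, the replicate numbers did not pair the libraries. Deviations of same-numbered libraries had a correlation between -0.22 and 0.213 (median -0.0218), over 0.1 in 5 of 24 pairs, and a median of 0.0159 in the 72 other pairs. Of 24 comparisons, 6 correlated best with their own number. This check took all genes and all pairs of groups together, so it cannot show a likeness held by few genes in the pre groups alone. In Arntl, Nr1d1, Per2 and Per3, replicates 1 and 4 were at the same opposite ends of CON-pre and HFD-pre, as given above. The further clock gene Dbp did the same, with 24.5 and 47.4 FPKM in replicates 1 and 4 of CON-pre. In HFD-pre it read 23.5 and 47.7 FPKM in these replicates. The remaining core genes did not have both replicates at the ends of both groups. This likeness was noticed after the values were seen, and its source was not tested. With a replicate block, the count of core genes called was 1 with both diets together and 0 in every other contrast, as without it. The block gives a replicate number the same effect in all 4 groups, so it too cannot decide on a likeness of the pre groups alone. Only the groups compared could not be fitted for both diets together or for the interaction. FPKM carry no depth, so how far a missed call reflects few reads is unknown.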
